A study of Macaca fascicularis with 11 samples.

Results

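Early mesoderm-like cells were the cells that combined an epiblast-type profile with MESP1 transcripts in cultured cynomolgus (Macaca fascicularis) embryos. They were selected on measured values. Each cell was scored by its mean log level over lists for trophoblast, epiblast and its derivatives (Epi), extraembryonic mesenchyme and endoderm. A cell was taken where the Epi list (POU5F1, IFITM1, L1TD1, DPPA4 and DNMT3B) scored highest, MESP1 reached 2 or more unique molecular identifiers (UMIs, which count captured transcripts) and ISL1 stayed below 2 UMIs. In all, 289 of 33330 cells met the rule, or 9.55% of the 3026 cells with the Epi score highest. The closest class among the Epi-derived cells, called transition-like here, held 219 cells with MIXL1 at 2 or more UMIs and MESP1 and ISL1 below 2. The 2266 other Epi-derived cells had all 3 genes below 2 UMIs.

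Embryos were grown in vitro from blastocysts and dissociated at Day 10, Day 12 or Day 14, and cells were captured in 11 droplet libraries. Wild-type embryos gave 6 libraries of unmodified embryos, which pooled 2 and 3 embryos for Day 10, 1 and 2 for Day 12, and 2 each for Day 14. ISL1 hypomorphic mutant embryos, injected as zygotes with Cas9 and 2 guide RNAs, gave 5 libraries, which pooled 3 embryos for Day 10, and 3 and 1 for each of Day 12 and Day 14. The mutant embryos are mosaic, so cells of 1 embryo can carry different edits, and all embryos of both genotypes grew outside the uterus. Cells were not assigned to embryos, so a library, not an embryo or a cell, is the replicate.

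MESP1 encodes a basic helix-loop-helix factor that is switched on for a short time as cells leave the primitive streak, and its lineage gives rise to heart, cranial and extraembryonic mesoderm. Streak formation depends on BMP4, WNT and NODAL signals, with EOMES and TBXT among the first factors to respond. ISL1 is a LIM homeodomain factor known from cardiac progenitors, and in these embryos the study addressed its role in the amnion.

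The markers of the name were found as follows. Of the 289 cells, 95.5% had a UMI of MIXL1, a homeobox factor of the streak, 99.0% had one of FOXH1, the DNA-binding partner of NODAL-activated SMADs, and 91.3% had one of HAS2, the hyaluronan synthase. RSPO3, a secreted amplifier of WNT signalling, was detected in 57.1%, which came mostly from wild-type Day 14 replicate 1, where 89.0% of the cells had it, against 4.55% to 40.9% in the other 5 libraries with at least 5 such cells. The same markers were found in 6.13%, 5.64%, 1.62% and 1.04% of the 23229 trophoblast-like cells, whose median depth was 20734 UMIs against 42610 in the early mesoderm-like cells. The median early mesoderm-like cell held 18.0 MESP1 UMIs and the highest held 426. At the edge of the rule, 32 cells had exactly 2 MESP1 UMIs and 118 cells that were left out had 1. MIXL1 stood at 277 CPM (the gene's UMIs scaled to a common total of summed UMIs) in the former and at 89.7 CPM in the latter, FOXH1 at 301 and 210 CPM, and RSPO3 at 62.8 and 22.4 CPM.

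Markers of other cell types were summed in the early mesoderm-like cells. In the 6 libraries with at least 5 such cells, the 7 trophoblast markers summed to 40.0 to 136 CPM, the 7 mesenchyme markers to 20.0 to 50.0 CPM and the 6 endoderm markers to 3.57 to 73.5 CPM, against 2423 to 3326 CPM for the 5 Epi markers. All of these lists were part of the rule, so their order was fixed by the choice of cells. Within the endoderm list, SOX17 was at 2.68 to 42.01 CPM against 0 to 2.09 CPM in the other Epi-derived cells, higher in 6 of 6 libraries without overlap. A SOX17 UMI was present in 5.88% to 20.8% of the cells per library, and the value rested on 1 UMI in wild-type Day 14 replicate 2 and in the mutant library. The other endoderm markers had no common direction, APOA1 being lower in 5 of 6 libraries, VTN in 4 and TTR in 3, and FOXA2 higher in 4. Among 8 amnion markers, which summed to 135 to 267 CPM, GABRP was at 0 in 4 of the 6 libraries and VTCN1 in 4. The 8 blood and endothelium markers summed to 20.1 to 63.4 CPM, with CDH5 at 0 in 4 libraries, VWF higher in 6 of 6 libraries than in the other Epi-derived cells and ITGB2 lower in 5, and the 4 germ cell markers to 20.0 to 61.7 CPM, with PRDM1 at 0 in 3. In wild-type Day 14 replicate 1, 1 cell, picked after its values were seen, had 50 UMIs of SOX17, 21 of TFAP2C and 3 of PRDM1 but none of MIXL1. It was not alone in that library. Another cell, picked likewise, had 33, 20 and 1 UMIs of these genes and 1 of MIXL1. A further cell had 11, 10 and 2, with 6 of MIXL1. Of the 289 cells, 19 held more than 2 times their library's median UMIs, no doublet caller was run, and 1 shared its barcode with a cell of another library.

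Early mesoderm-like cells were a larger share of the Epi-derived cells in wild-type than in mutant libraries. At Day 10, the wild-type libraries held 24 of 219 (10.96%, exact binomial 95% interval 7.15% to 15.9%) and 44 of 305 (14.4%, 10.7% to 18.9%). At Day 12, wild-type replicate 2 held 22 of 157 (14.0%, 8.99% to 20.4%), while replicate 1, from 1 embryo, held 0 of 15, for which the exact upper limit is 21.8% and the limit that 3 counts set is 20.0%. At Day 14, wild-type replicate 1 held 164 of 559 (29.3%, 25.6% to 33.3%) and replicate 2 held 11 of 113 (9.73%, 4.96% to 16.8%). The intervals of the Day 14 pair do not overlap, so these replicates differed by more than counting error, which is all the intervals cover.

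In the mutant, the Day 10 library held 2 of 239 (0.837%, 0.102% to 2.99%). The Day 12 libraries held 17 of 698 (2.44%, 1.43% to 3.87%) and 1 of 277 (0.361%, 0.00914% to 1.99%), and the Day 14 libraries 2 of 357 (0.560%, 0.0679% to 2.01%) and 2 of 87 (2.30%, 0.280% to 8.06%). All 5 mutant shares were below those of the 5 wild-type libraries that held any such cell, while wild-type Day 12 replicate 1, at 0 of 15, lay below all 5, with an interval up to 21.8%. The mean share was 1.30% over mutant and 13.1% over wild-type libraries. Averaged over days, the mutant minus wild-type difference was -11.9 percentage points (two-sided exact permutation test within days, p = 0.0278, 108 arrangements). With cells thinned to 10000 UMIs and shallower cells left out, it was -8.03 percentage points, with the same exact p. That step removed 217 Epi-derived cells of mutant Day 14 replicate 1, 22 of replicate 2, and 78 and 49 of the mutant Day 12 libraries, against 22 of wild-type Day 14 replicate 1 and 4 of wild-type Day 12 replicate 2. Both early mesoderm-like cells of mutant Day 14 replicate 2 were among them. As a share of all cells, the means were 0.126% over mutant and 3.07% over wild-type libraries. The difference averaged over days was then -2.92 percentage points (exact permutation p = 0.0370).

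The call rested on the full set of libraries. Leaving out 1 library at a time gave differences between -8.59 and -15.1 percentage points. The exact permutation p passed 0.05 in 10 of the 11 cases, the exception being wild-type Day 12 replicate 1. It reached at most 0.167, without the single mutant Day 10 library, where 36 arrangements in mirrored pairs cannot give a p under 0.05. Within libraries numbered as batch 1, the difference was -12.2, and within batch 2 it was -10.5 percentage points (exact p = 0.5 each), and these splits are too small to reach 0.05. With the batch number as a replicate block the difference was -11.5 percentage points (exact p = 0.125, 32 arrangements). The call could not hold there, since 1 library against 1 in each of 5 blocks cannot give a two-sided p under 0.05. At Day 14 alone the difference was -18.1 percentage points with an exact p of 0.333, the smallest that 2 against 2 libraries can give, and at Day 12 alone it was -5.61 percentage points (exact p = 1.0). Of all 289 cells, 265 came from wild-type libraries and 56.7% from wild-type Day 14 replicate 1. Fewer cells of a kind and less MESP1 RNA in each cell cannot be told apart by a share defined on MESP1.

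**Figure D1:**
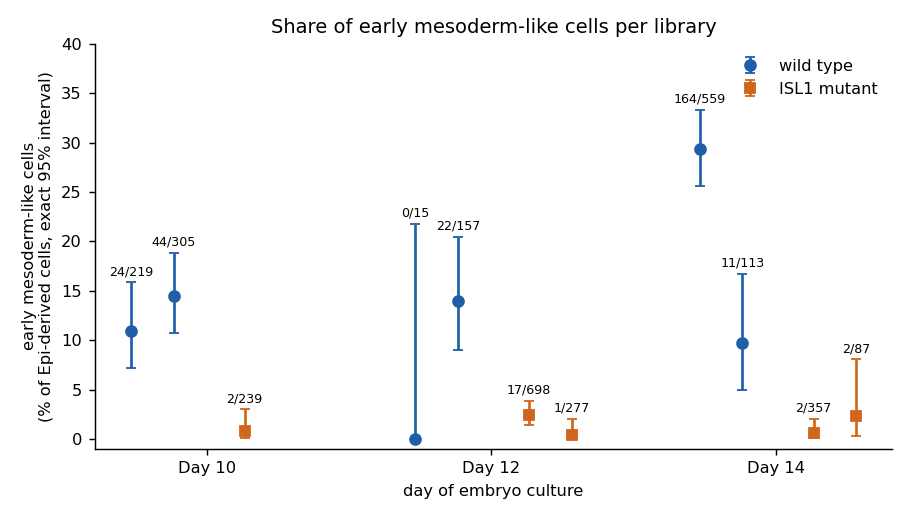
Early mesoderm-like cells as a percentage of Epi-derived cells (vertical axis) in each library, ordered by day of culture. Circles are wild-type and squares ISL1 mutant libraries, bars are exact binomial 95% intervals, and the labels give the cells over the Epi-derived cells; the mutant libraries lie at or below 2.44%, and wild-type Day 14 replicate 1 lies highest at 29.3%.

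ISL1, the targeted gene, was held below 2 UMIs by the rule, so its level in these cells is no check of the edit. Summed over the early mesoderm-like cells it lay between 0 and 2.74 CPM. Among the Epi-derived cells that the rule set aside, 7 carried both MESP1 and ISL1 at 2 or more UMIs, all in wild-type libraries. Cells with ISL1 but without MESP1 at that level numbered 0 (of 15 Epi-derived cells) to 30 (of 559) per wild-type library. In mutant libraries they numbered 12 (of 698) to 57 (of 277). These counts are not shares, as wild-type Day 14 replicate 2 held 26 of 113 and mutant Day 14 replicate 2 held 24 of 87. A 3' count does not read the edited part of the transcript.

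To describe what distinguished the early mesoderm-like cells inside an embryo pool, their summed UMIs were set against those of the other Epi-derived cells of the same library, in 5 wild-type libraries and mutant Day 12 replicate 1. Of 9722 genes tested, 500 were higher (5.14%) and 429 lower (4.41%), which makes 9.56% called by edgeR's quasi-likelihood test with Benjamini-Hochberg adjustment at a false discovery rate of 1%. The genes of the rule were left out of the test. MIXL1 is given as values only, because the reference cells were held below 2 UMIs of it. A gene could pass the low-count filter through 1 class alone, and symbols were available for 798 of the tested genes, from lists the study drew up on these samples. Of these, 34.8% were called and 22.7% were higher, which is the share to hold the lists against, since only genes with a symbol could be listed. The list counts below are therefore descriptions. The median log2 fold change over all tested genes was -0.02.

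Streak transcription factors were higher in nearly every member that was tested. Of 14 listed factors with an identifier, 9 were tested, 8 were higher and 0 were lower, with a list median of 2.73. EOMES, the T-box factor of streak and endoderm, ranged from 63.3 to 160 CPM with a median of 72.6 CPM over the 6 libraries, against 0.732 to 13.1 CPM (median 4.45) in other Epi-derived cells. The ranges did not overlap, and the log2 fold change was 4.43 ± 0.32 (SE, adjusted p = 2.29e-06).

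LHX1, a LIM homeodomain factor of early mesendoderm, was at 26.0 and 29.5 CPM at Day 10, 326 CPM at Day 12, 133 and 3.57 CPM at Day 14 and 120 CPM in the mutant Day 12 library, against 0 to 8.94 CPM in other Epi-derived cells. It was high in 5 of the 6 libraries and at the level of the reference (3.56 CPM) in wild-type Day 14 replicate 2 (log2 fold change 5.70 ± 0.48, adjusted p = 6.61e-06). HES7, a Notch-driven repressor of the segmentation clock, ranged from 13.3 to 57.1 CPM against 0.249 to 1.78 CPM, without overlap (5.09 ± 0.31, adjusted p = 8.93e-07). EVX1, a homeobox gene of the streak, stood at 89.9 to 150 CPM against 8.59 to 46.9 CPM (2.73 ± 0.21, adjusted p = 3.24e-06). These factors, EOMES among them, thus separated the classes in every library except for LHX1 in wild-type Day 14 replicate 2.

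FOXH1 was detected in both classes and differed by degree, at 368 to 1086 CPM against 95.3 to 215 CPM (1.92 ± 0.12, adjusted p = 8.93e-07). MESP2, the paralogue of MESP1 active in somite formation, stood at 7.14 to 30.0 CPM against 1.19 to 5.08 CPM (2.38 ± 0.37, adjusted p = 0.000660). TBXT, also called Brachyury, stayed low, at 0 to 14.3 CPM against 0 to 0.638 CPM, and with GSC, MSGN1 and OTX2 it did not pass the low-count filter. MIXL1 reached 256 to 727 CPM against 2.59 to 5.11 CPM in cells chosen for little of it. With the transition-like cells kept in the reference, a comparison added after seeing the data, its log2 fold change was 4.28 ± 0.35 (adjusted p = 6.91e-06).

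WNT pathway genes moved in both directions. Of 15 with an identifier, 10 were tested, 7 were higher, the secreted antagonists SFRP1 and SFRP2 were lower, and APCDD1, also an antagonist, was not called (list median 2.19). The ligands WNT2, WNT6 and WNT7A did not pass the filter, and WNT7A was lower in 6 of 6 libraries and WNT2 in 5. WNT8A, a ligand of the streak, stood at 32.5 to 155 CPM (median 67.6) against 0.342 to 4.15 CPM (median 1.96) (5.47 ± 0.37, adjusted p = 1.77e-06). WNT3, the ligand needed to form a streak, reached 7.14 to 28.8 CPM against 0.586 to 3.83 CPM (3.43 ± 0.39, adjusted p = 6.81e-05). Neither ligand's ranges overlapped.

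Receiving and responding genes moved as well. FZD4, a Frizzled receptor, was at 21.9 to 41.7 CPM against 2.08 to 6.55 CPM (2.91 ± 0.28, adjusted p = 1.81e-05), and SP5, a transcriptional target of WNT, at 32.9 to 123 CPM against 1.85 to 16.6 CPM (3.44 ± 0.45, adjusted p = 0.000193). RSPO3 was uneven, with 5.00 and 1.34 CPM at Day 10, 114 CPM at Day 12, 390 and 3.57 CPM at Day 14 and 13.3 CPM in the mutant library, against 0.391 to 13.3 CPM. It was above its own library's reference in all 6 (3.78 ± 0.44, adjusted p = 7.70e-05), yet high only in wild-type Day 12 replicate 2 and Day 14 replicate 1. On the antagonist side, SFRP2 stood at 11.3 to 60.7 CPM against 63.7 to 223 CPM (-2.31 ± 0.14, adjusted p = 9.66e-07), and SFRP1 at 0.500 to 27.8 CPM against 4.78 to 268 CPM (-3.11 ± 0.31, adjusted p = 2.11e-05).

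Genes of the BMP, NODAL and TGF-beta pathways were higher in 8 of 13 tested and lower in none (list median 1.37). BMP4, the ligand that induces mesoderm, stood at 184 and 148 CPM at Day 10, 130 CPM at Day 12, 132 and 111 CPM at Day 14 and 247 CPM in the mutant library, against 3.08 to 29.7 CPM. All 6 values lay above the reference range (3.23 ± 0.38, adjusted p = 7.99e-05). Among targets of BMP signalling, MSX1 rose (2.52 ± 0.32, adjusted p = 0.000160) and ID3 rose (1.44 ± 0.24, adjusted p = 0.00128), whereas ID1 (0.37 ± 0.23, adjusted p = 0.308) and MSX2 (0.46 ± 0.27, adjusted p = 0.302) were not called. BAMBI, a decoy receptor, was not called either (0.97 ± 0.33, adjusted p = 0.0636).

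In the FGF pathway, 3 of 8 tested genes were higher, 0 were lower, and the list median was 0.14. FGF17 stood at 7.14 to 102 CPM (median 47.1) against 0.781 to 2.58 CPM (5.38 ± 0.27, adjusted p = 2.26e-07), and FGF4, the ligand of epiblast and streak, at 132 to 350 CPM against 15.4 to 93.2 CPM (2.51 ± 0.18, adjusted p = 2.29e-06). The ranges of both ligands were apart. With cells chosen on 1 part of the UMIs and tested on the other, 1 of 7 tested genes was higher and 1 lower (list median 0.013), and IL17RD, the third of the genes that were higher, missed 1% (adjusted p = 0.0247). With sums thinned to 10000 UMIs per cell, 1 of 5 was higher and 0 were lower. The response genes DUSP6 (0.25 ± 0.38, adjusted p = 0.738) and ETV4 (-0.51 ± 0.18, adjusted p = 0.0668) were not called.

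Adhesion and cytoskeleton genes changed in part. Of 10 tested genes of the epithelial-mesenchymal transition, 4 were higher and 1 was lower (list median 0.38). CDH2, or N-cadherin, was at 164 and 45.7 CPM at Day 10, 266 CPM at Day 12, 118 and 60.7 CPM at Day 14 and 80.1 CPM in the mutant library, against 1.76 to 29.0 CPM, above the reference range throughout (3.74 ± 0.27, adjusted p = 2.29e-06). VIM, the mesenchymal intermediate filament, reached 239 to 579 CPM against 11.6 to 236 CPM (2.45 ± 0.31, adjusted p = 0.000154). OVOL2, a repressor of mesenchymal genes, was at 10.7 to 32.5 CPM against 28.0 to 79.3 CPM (-1.45 ± 0.13, adjusted p = 1.13e-05).

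Epithelial genes were not uniformly lower. EPCAM stood at 215 to 374 CPM against 179 to 428 CPM and was not called (0.03 ± 0.10, adjusted p = 0.916). The keratins KRT18 (1.05 ± 0.16, adjusted p = 0.000609) and KRT8 (0.85 ± 0.12, adjusted p = 0.000423) were higher. SNAI2 was at 0 in 4 of the 6 libraries of early mesoderm-like cells and ZEB2 at 0 in 2, and neither passed the filter, so this list speaks mainly of cadherin, vimentin and keratin genes.

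Caudal and HOX genes, which set position along the body axis, were higher in 16 of 17 tested and lower in none (list median 3.32). HOXB6 stood at 99.5 and 108 CPM at Day 10, 158 CPM at Day 12, 43.8 and 71.4 CPM at Day 14 and 144 CPM in the mutant library, against 0.879 to 19.6 CPM, so that Day 10 cells were not below Day 14 cells (4.21 ± 0.42, adjusted p = 2.43e-05). HOXB5 (4.67 ± 0.39, adjusted p = 6.59e-06) and HOXB8 (4.11 ± 0.51, adjusted p = 0.000125) were also higher. HOXD12 was not called (2.00 ± 0.89, adjusted p = 0.153). CYP26A1, which degrades retinoic acid, was at 74.2 to 565 CPM against 0 to 10.9 CPM (5.11 ± 0.37, adjusted p = 2.29e-06).

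The caudal factors CDX1 (1.51 ± 0.19, adjusted p = 0.000167), CDX2 (1.86 ± 0.24, adjusted p = 0.000152) and CDX4 (1.76 ± 0.17, adjusted p = 1.75e-05) were higher by a smaller fold. CDX2 stood at 140 to 579 CPM against 18.8 to 282 CPM, and these ranges overlapped.

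Genes of lateral, extraembryonic and cardiac mesoderm were higher in 4 of 8 tested and lower in none (list median 1.63). HAND1, a basic helix-loop-helix factor of extraembryonic and cardiac mesoderm, was at 1384 and 634 CPM at Day 10, 551 CPM at Day 12, 382 and 293 CPM at Day 14 and 1952 CPM in the mutant library, against 49.2 to 533 CPM. Each value was above its own library's reference, although the ranges overlapped (2.30 ± 0.33, adjusted p = 0.000372). TBX3 (2.22 ± 0.30, adjusted p = 0.000214) and ACTC1, a cardiac actin (1.70 ± 0.31, adjusted p = 0.00189), were higher too. With membership decided at 10000 UMIs per cell, ACTC1 was at 1.05 and not called (adjusted p = 0.0247). TNNT1, PITX1, LMO2 and MEIS2 were not called.

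Matrix genes were mostly not called, with 2 of 14 higher and 1 lower (list median 0.45). HAPLN1, a linker of hyaluronan to proteoglycans, stood at 35.7 to 191 CPM against 6.16 to 31.1 CPM (3.28 ± 0.31, adjusted p = 1.46e-05) and HAS2 at 56.2 to 210 CPM against 8.44 to 63.5 CPM (2.04 ± 0.24, adjusted p = 7.99e-05). VCAN, the proteoglycan versican, was lower, at 0.574 to 19.2 CPM against 1.81 to 49.6 CPM (-1.33 ± 0.17, adjusted p = 0.000191). FN1, or fibronectin, was not called (0.57 ± 0.32, adjusted p = 0.259).

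Pluripotency genes were lower in 7 of 10 tested and higher in 1, with a median of -1.32. NANOG stood at 72.5 and 120 CPM at Day 10, 31.5 CPM at Day 12, 26.6 and 46.4 CPM at Day 14 and 26.7 CPM in the mutant library, against 102 to 366 CPM, lower in each library (-2.24 ± 0.20, adjusted p = 8.67e-06). USP44 (-3.15 ± 0.25, adjusted p = 5.13e-06) and DPPA5 (-1.52 ± 0.07, adjusted p = 1.71e-07) fell, while LIN28A did not pass the test (0.12 ± 0.10, adjusted p = 0.459). POU5F1, used in the rule, was at 895 to 1311 CPM against 1174 to 1585 CPM. The exception on the higher side was SALL1 (3.80 ± 0.27, adjusted p = 2.29e-06), which is also active in developing mesoderm.

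Among neuronal cytoskeleton genes, 4 of 10 were higher, 2 were lower and the median was -0.27. The neurofilaments NEFM (2.61 ± 0.26, adjusted p = 2.07e-05) and NEFL (2.35 ± 0.29, adjusted p = 0.000109) rose, and TUBB2B fell (-1.49 ± 0.22, adjusted p = 0.000541). Of 16 cell cycle genes, 3 were higher and 1 was lower, with a median of 0.05, and the proliferation marker MKI67 was not called (0.11 ± 0.13, adjusted p = 0.655). CDKN1C, an inhibitor of cyclin-dependent kinases, had the largest fall with a symbol, at 2.01 to 25.0 CPM against 27.3 to 269 CPM (-3.97 ± 0.43, adjusted p = 4.16e-05). PTGR1, a prostaglandin reductase, was at 1623 to 4029 CPM against 56.0 to 186 CPM (4.38 ± 0.23, adjusted p = 4.02e-07). IGFBP3, a binding protein of insulin-like growth factors, fell (-2.74 ± 0.31, adjusted p = 6.74e-05), as did the cell-surface protein BCAM (-1.96 ± 0.32, adjusted p = 0.00103).

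Of the markers of other cell types, 2 of 4 tested amnion genes were higher, namely ANXA3 (1.57 ± 0.27, adjusted p = 0.00142) and HEY1 (1.74 ± 0.35, adjusted p = 0.00421), and TFAP2A and MSX2 were not called. With membership decided at 10000 UMIs, 0 of 4 were higher and 1 was lower, ANXA3 being at 1.00 (adjusted p = 0.0319) and HEY1 at 1.50 (adjusted p = 0.0172). HEY1 was lost at 1% in 4 of the 6 fits that left out a library, its adjusted p reaching 0.0193 without wild-type Day 10 replicate 1, 0.0102 without replicate 2 of that day, 0.0161 without wild-type Day 12 replicate 2 and 0.0178 without the mutant library. None of 2 tested germ cell or 4 tested blood and endothelium genes was called. A limit in MESP1 UMIs depends on a cell's depth, which a split of the UMIs does not even out between classes. The depth difference had no common direction. Median UMIs were higher than in other Epi-derived cells in both Day 10 libraries (78208 against 51888, 108083 against 84544) and wild-type Day 14 replicate 2. They were lower in wild-type Day 12 replicate 2 (30111 against 34394), Day 14 replicate 1 (41361.5 against 44514) and the mutant library. So that cells were not chosen and tested on the same counts, the choice was repeated on 1 random part of the UMIs. The other part was tested, with the limits lowered to 1 UMI. In the 8 libraries, rather than 6, that then held at least 5 such cells, 690 of 7406 genes were called, 589 of them shared with the 929. CDKN1C was not among them (-2.06, adjusted p = 0.0109).

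**Figure D2:**
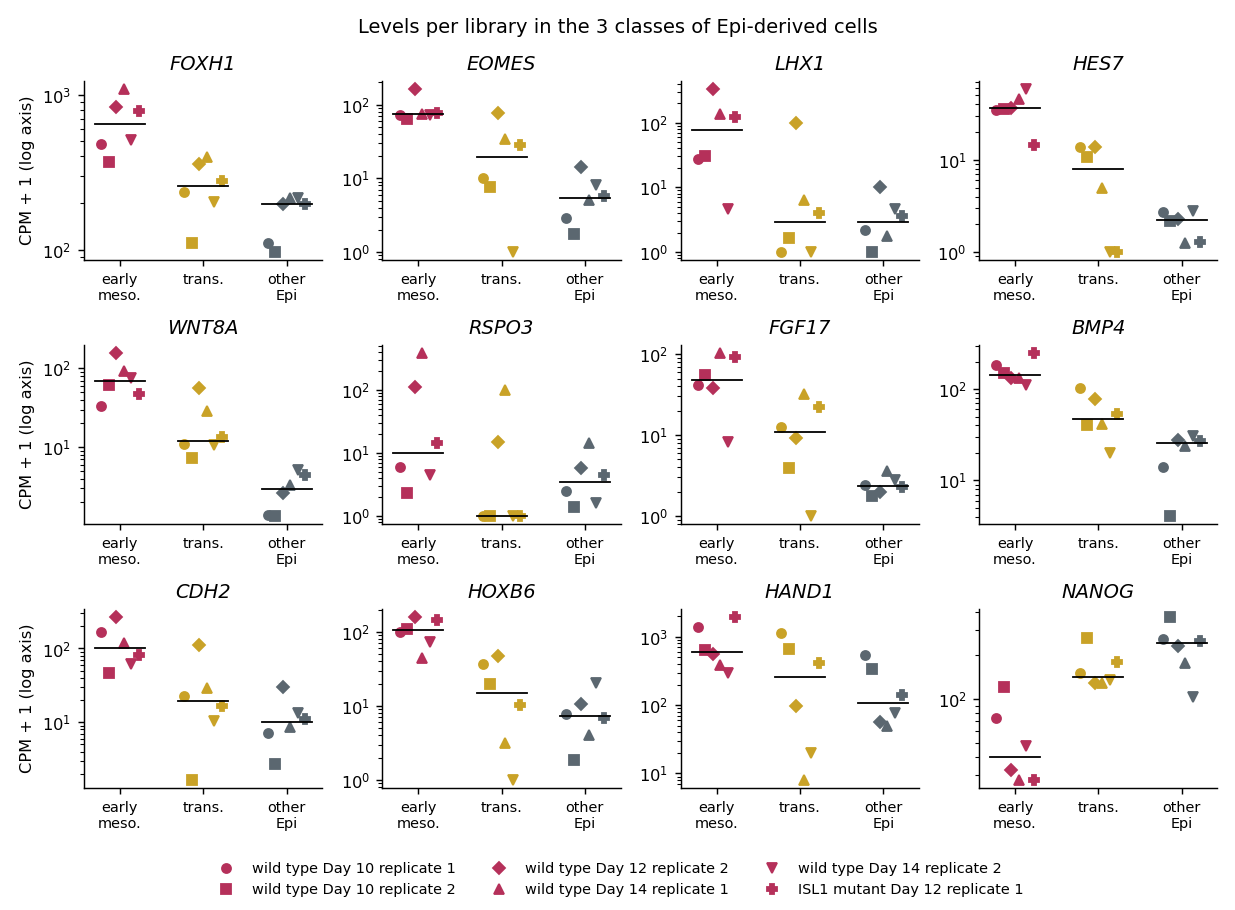
Level of 12 genes (vertical log axis, CPM + 1 of the summed cells) in early mesoderm-like, transition-like and other Epi-derived cells. Each symbol is 1 library with at least 5 early mesoderm-like cells and each line the median over them; wild-type Day 14 replicate 2 holds 3 transition-like cells and is drawn but was not tested there, and NANOG lies lowest and EOMES, WNT8A and HOXB6 highest in the early mesoderm-like cells.

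The comparison with transition-like cells asked what sets MESP1-positive cells apart from cells with MIXL1 but little MESP1. It could be made in 5 libraries, of which mutant Day 12 replicate 1 was 1. Of 7647 genes tested, 121 were higher (1.58%) and 62 lower (0.811%), or 2.39% in all, and 11.4% of the 727 with a symbol. The median log2 fold change was 0.00. LHX1 led, at 26.0, 29.5, 326, 133 and 120 CPM in early mesoderm-like cells against 0, 0.655, 97.8, 5.48 and 3.07 CPM in the transition-like cells of the same libraries (3.42 ± 0.43, adjusted p = 0.000886). CYP26A1 followed at 3.34 ± 0.24 (adjusted p = 3.90e-05) and LZTS1, a leucine zipper protein, at 3.13 ± 0.27 (adjusted p = 0.000106). All 3 were higher in each of the 5 libraries. PTGR1 (2.79 ± 0.29, adjusted p = 0.000376), the actin-binding ABLIM1 (2.32 ± 0.31, adjusted p = 0.00140) and ANXA1, an annexin (3.13 ± 0.50, adjusted p = 0.00376), were also among the 10 largest rises, and ANXA1 lost its call without wild-type Day 12 replicate 2 (adjusted p = 0.0153), without the mutant library (adjusted p = 0.0164) and with membership at 10000 UMIs.

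Of the 9 tested streak factors, 4 were higher and 0 lower (LHX1, HES7, EOMES and FOXH1, list median 1.39). FOXH1 stood at 368 to 1086 CPM against 109 to 398 CPM in the 5 libraries (1.39 ± 0.10, adjusted p = 3.90e-05), and HES7 rose by 2.23 ± 0.31 (adjusted p = 0.00166). EOMES was higher by 1.80 ± 0.28 (adjusted p = 0.00340), but lost its call without wild-type Day 12 replicate 2 (adjusted p = 0.0104) and without the mutant library (adjusted p = 0.0180). EVX1 (0.85 ± 0.18, adjusted p = 0.0156) and SP5 (0.89 ± 0.37, adjusted p = 0.226) did not pass here, nor did the marker HAS2 (0.63 ± 0.18, adjusted p = 0.0767).

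Signalling genes followed the same split in part. RSPO3 was at 0 in the transition-like cells of both Day 10 libraries and of the mutant library, at 14.0 CPM at Day 12 and 101 CPM in Day 14 replicate 1, and was called higher (2.28 ± 0.25, adjusted p = 0.000437). WNT8A (1.99 ± 0.22, adjusted p = 0.000471), FZD4 (2.03 ± 0.24, adjusted p = 0.000664), BMP4 (1.44 ± 0.18, adjusted p = 0.000839), FGF17 (2.25 ± 0.29, adjusted p = 0.000980) and FGF4 (1.69 ± 0.21, adjusted p = 0.000850) were higher as well. SFRP2 was lower (-1.20 ± 0.18, adjusted p = 0.00281). Its call was lost without wild-type Day 14 replicate 1 (adjusted p = 0.0193) and without the mutant library (adjusted p = 0.0126).

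CDH2 (2.34 ± 0.33, adjusted p = 0.00166; 0.0125 without the mutant library) and VIM (1.18 ± 0.20, adjusted p = 0.00520) were the 2 of 10 tested transition genes called. VIM lost its call without wild-type Day 12 replicate 2, without wild-type Day 14 replicate 1 or without the mutant library (adjusted p up to 0.0244). Of 14 tested caudal and HOX genes, 3 were higher, with HOXB6 at 2.47 ± 0.30 (adjusted p = 0.000786). HOXB2 missed 1% without the mutant library (adjusted p = 0.0164), and HOXD9 in 4 of the 5 fits that left out a library (adjusted p up to 0.0506, without wild-type Day 10 replicate 2). CDX4 was not called (-0.10 ± 0.23, adjusted p = 0.921). HAND1 was higher in 4 of the 5 libraries without passing (1.75 ± 0.61, adjusted p = 0.136), and at Day 10 replicate 2 it stood at 634 CPM against 671 CPM. NANOG (-1.65 ± 0.20, adjusted p = 0.000721) and CDKN1C (-3.28 ± 0.40, adjusted p = 0.000786) were lower, and 0 of 16 cell cycle genes were called in either direction.

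This comparison was the more fragile. Without the mutant library, 77 genes were called, 74 of them among the 183. Without wild-type Day 10 replicate 2, Day 12 replicate 2 or Day 14 replicate 1, the counts were 110, 93 and 110. With cells chosen on 1 random part of the UMIs and tested on the other, 177 of 4167 genes were called, 93 of them among the 183. With membership decided at 10000 UMIs per cell 85 were called, 53 of them among the 183. CDKN1C, WNT8A, FGF4, FZD4, HES7 and EOMES were among the genes that missed 1% under that membership. CDKN1C also missed it on the uncorrected counts (-1.80, adjusted p = 0.0323) and by DESeq2 (-2.93, adjusted p = 0.0182).

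**Figure D3:**
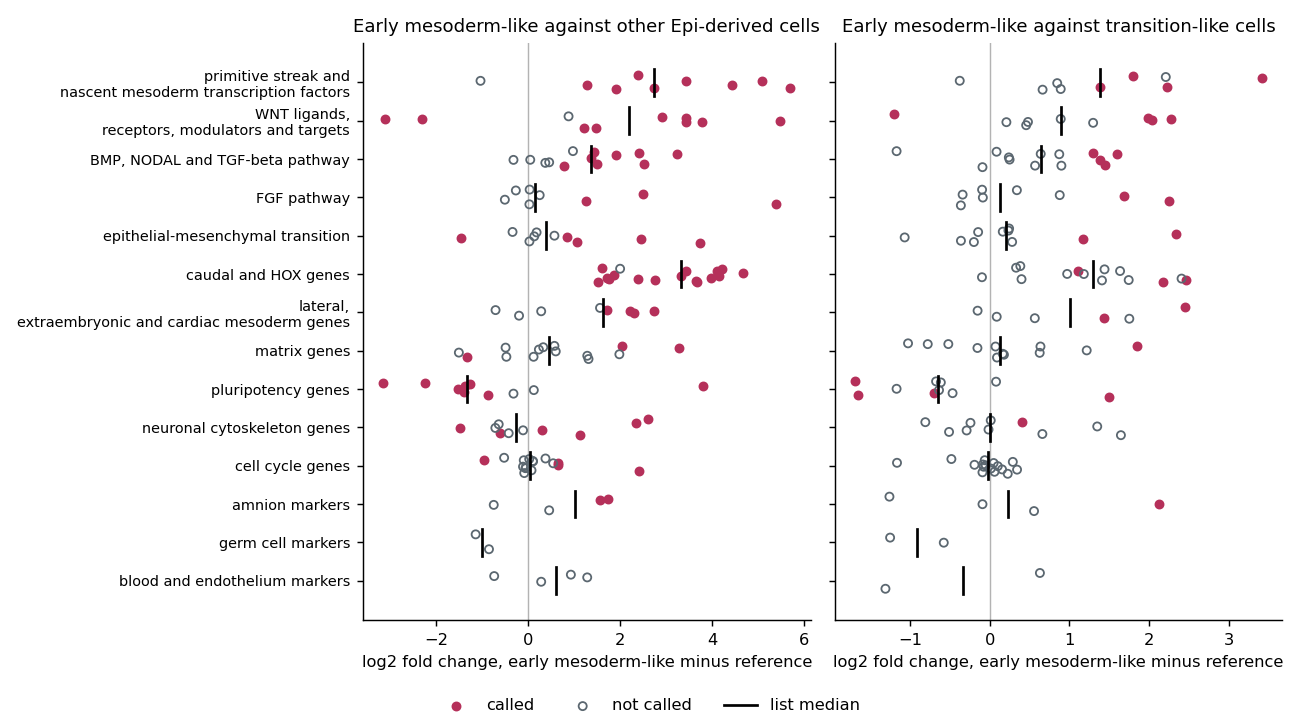
Log2 fold change (horizontal axis) of each tested gene of the lists named on the vertical axis, for early mesoderm-like cells against other Epi-derived cells (left) and against transition-like cells (right). Filled points passed a false discovery rate of 1%, open points did not, black bars are list medians and the vertical scatter is only for display; the caudal and HOX genes lie at a median of 3.32 on the left and 1.30 on the right.

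Day 14 cells were set against Day 10 cells in the wild type, 2 libraries each, to see whether the rule picked cells of the same profile at both ages. Of 9661 genes, 0 (0.0%) passed edgeR's quasi-likelihood test, 1229 had an unadjusted p under 0.05, and DESeq2 called 47. With the batch number of the labels as a replicate block, 1 was called. Without Day 10 replicate 1 the count was 175 and without Day 10 replicate 2 it was 119, with 0 when either Day 14 library was left out. The values are therefore given as a description. For the 7 genes named below, 10 of 56 repeats passed 1% under alternatives other than a left-out library. The 56 include the alternative of 10 cells per sum, which was the main fit again.

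KRT18 was at 5380 and 4720 CPM at Day 10 and at 761 and 1286 CPM at Day 14 (-2.30 ± 0.32, adjusted p = 0.0666), and KRT8 followed it (-2.23 ± 0.26, adjusted p = 0.0535). HAND1 was at 1384 and 634 against 382 and 293 CPM (-1.54 ± 0.40, adjusted p = 0.178). NANOG stood at 72.5 and 120 against 26.6 and 46.4 CPM (-1.56 ± 0.37, adjusted p = 0.159). In these 4 genes the 2 days did not overlap, with Day 10 the higher.

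CDX4 was at 12.0 and 1.53 CPM at Day 10 and 72.1 and 136 CPM at Day 14 (4.14 ± 0.77, adjusted p = 0.100), and VCAN at 1.50 and 0.574 against 19.2 and 17.9 CPM (4.43 ± 0.59, adjusted p = 0.0666). RSPO3 was at 5.00 and 1.34 against 390 and 3.57 CPM, where the days overlapped and 1 library of Day 14 stood apart. Other Epi-derived cells moved alongside in several of these genes. Their KRT18 was at 3239 and 2909 CPM at Day 10 and 536 and 420 CPM at Day 14, their HAND1 at 533 and 335 against 49.2 and 74.8 CPM and their CDX4 at 4.07 and 0.342 against 16.1 and 60.5 CPM. The difference between the classes in this shift was not called for KRT18 (0.24 ± 0.21, adjusted p = 0.793), HAND1 (1.41 ± 0.25, adjusted p = 0.0103) or CDX4 (0.06 ± 0.62, adjusted p = 1.0).

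Within a library the early mesoderm-like cells were mixed. In wild-type Day 14 replicate 1, which held 164 of them, GSC, an organizer and anterior streak factor, had a UMI in 74 cells and none in 90. The split by GSC was chosen after its values were seen, and other libraries held few cells with GSC, which lay at 0 to 1.50 CPM in 3 of the other wild-type libraries, 9.60 CPM at Day 12 and 16.7 CPM in the mutant library. Cells with GSC held a median of 44686 UMIs and cells without it 39344.

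CDX4 had a UMI in 51.4% of the cells with GSC and 82.2% of those without, and after thinning to 10000 UMIs in 23.1% and 49.5%. LHX1 went the other way, with a UMI in 75.7% against 33.3% of the cells, and 50.0% against 26.1% after thinning. The CDX4 difference was not seen in the other libraries with several GSC cells. In wild-type Day 12 replicate 2, with 4 such cells, CDX4 was in all 4 and in 77.8% of the cells without GSC, and LHX1 in 75.0% and 50.0%. In the mutant library, also with 4, CDX4 was in 50.0% and 53.8%, and LHX1 in all 4 and in 38.5%. In summed cells with and without GSC, MIXL1 was at 1014 and 448 CPM, RSPO3 at 532 and 252 CPM, and EOMES at 98.7 and 49.3 CPM. CDX1 (108 and 240 CPM), CDX2 (90.8 and 228 CPM) and KRT18 (458 and 1056 CPM) were lower in the cells with GSC.

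HAND1 was compared with LHX1 and CDX4 in the same way. LHX1 had a UMI in 62.9% of the cells of this library with HAND1 and 33.9% of those without, or 48.7% and 20.7% after thinning. CDX4 differed little, at 67.6% and 69.5%, and 44.7% and 37.9% after thinning. LHX1 was also the more frequent in cells with HAND1 in wild-type Day 12 replicate 2 (71.4% and 25.0%). In the wild-type Day 10 libraries and mutant Day 12 replicate 1, no cell without HAND1 had a UMI of LHX1. Such cells were few, at 4, 9 and 5, and LHX1 was in 45.0%, 45.7% and 75.0% of the cells with HAND1. CDX4 had no common direction, with all 14 cells with HAND1 and 50.0% of those without in wild-type Day 12 replicate 2, and 41.7% and 80.0% in the mutant library. Summed cells with LHX1 stood at 580 CPM of HAND1, and those without at 133 CPM. Per-cell detection was not tested, as cells of 1 library are not replicates.

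**Figure D4:**
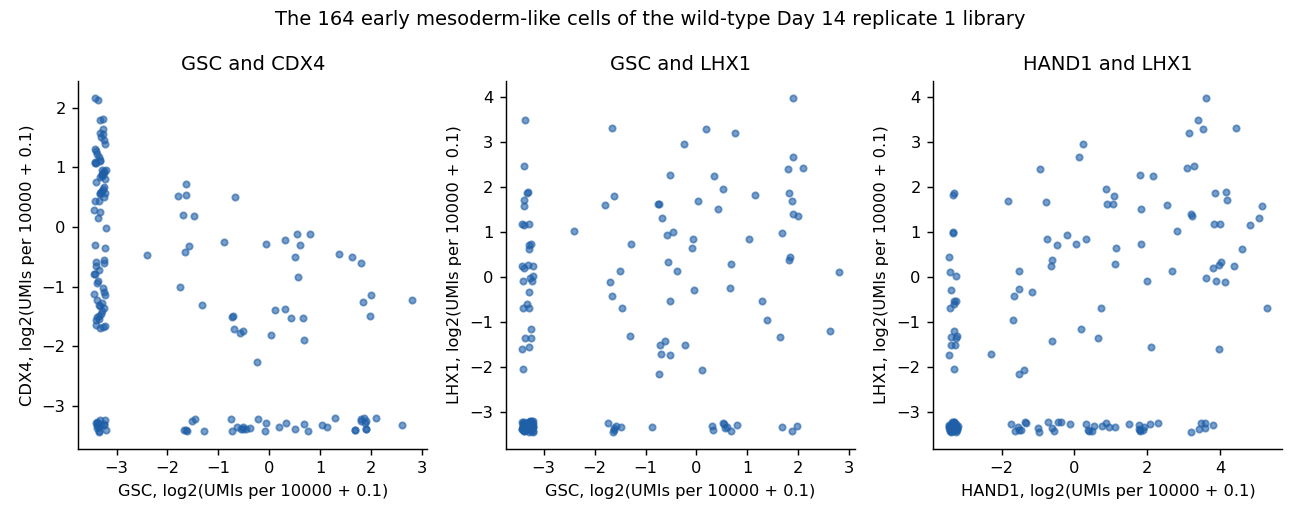
The 164 early mesoderm-like cells of wild-type Day 14 replicate 1, 1 point per cell, for GSC and CDX4, GSC and LHX1, and HAND1 and LHX1 (axes, log2 of UMIs per 10000 plus 0.1; cells without a UMI are spread slightly at the lower end). CDX4 had a UMI in 51.4% of the cells with GSC and 82.2% of those without.

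The genotypes could be compared inside these cells only through mutant Day 12 replicate 1, which held 17 of the 24 mutant cells. The Day 14 comparison could not be fitted, as the mutant libraries of that day held 2 and 2 cells. With day as a term and the single mutant library assumed to vary like the wild-type ones, 0 of 8808 genes (0.0%) passed edgeR's quasi-likelihood test, 638 had an unadjusted p under 0.05, and DESeq2 called 2. Leaving out wild-type Day 10 replicate 1 gave 23 calls and leaving out replicate 2 gave 33. No list could therefore be called changed or unchanged by genotype.

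Side by side with the 22 cells of wild-type Day 12 replicate 2, the 17 mutant cells had 544 against 587 CPM of MIXL1, 784 against 837 CPM of FOXH1, 76.8 against 160 CPM of EOMES and 120 against 326 CPM of LHX1. RSPO3 was at 13.3 against 114 CPM (-3.08 ± 2.23, adjusted p = 0.734), and of the alternatives run it passed only without a low-count filter (-3.14, adjusted p = 0.000924). WNT8A was at 46.7 against 155 CPM (-1.73 ± 0.57, adjusted p = 0.666) and WNT5B, a non-canonical WNT ligand, at 76.8 against 256 CPM (-1.74 ± 0.40, adjusted p = 0.666). HAND1 stood at 1952 against 551 CPM (1.83 ± 0.57, adjusted p = 0.666) and BMP4 at 247 against 130 CPM (0.93 ± 0.39, adjusted p = 0.666). Each pair is 1 library against 1, of 3 and 2 pooled embryos.

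The other 7 mutant cells came from 4 libraries and did not share 1 profile. The 2 cells of Day 10 had 250 CPM of MIXL1 and 568 CPM of FOXH1, and the 2 of Day 14 replicate 1 had 1344 and 741 CPM. The 2 cells of Day 14 replicate 2 had no UMI of either, 61.9 CPM of POU5F1 and 20046 CPM of KRT18. The single cell of Day 12 replicate 2 had no MIXL1 UMI, with NANOG and SOX17, an endoderm and germ cell factor, both at 1204 CPM. It also held 4 UMIs of TFAP2C and 1 of PRDM1, both on the germ cell list. These sums rest on 1 or 2 cells each and were not tested.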

How the data were processed

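Cells of 12 wild-type and 11 mutant embryos were profiled by 10x 3' sequencing. The authors counted UMIs per gene and cell with Cell Ranger 3.1.0 (per the labels) against the Ensembl annotation of Macaca_fascicularis_5.0, filtered cells and genes, and removed free RNA with SoupX. The deposited corrected values are expected counts, whole numbers without scaling, and the deposited uncorrected values are raw counts. The correction removed 0.196% to 8.77% of the UMIs of a library. Libraries held between 36654977 and 164808415 corrected UMIs, with median cells of 10916 to 142180 UMIs. Supplementary tables of the study pair 996 of 19367 identifiers with 1 usable symbol. Results for some genes are not reported here. No genome of this build was used here, so no coordinates are given.

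Corrected counts were summed per library and class where a library held at least 5 cells, and compared with edgeR 4.0.16 in R 4.3.3 (TMM scaling and filterByExpr, a two-sided quasi-likelihood test, p-values adjusted by Benjamini-Hochberg over all genes tested, false discovery rate 1.0%), with the library as a block for classes. Fold changes are log2 with their standard errors (SE). DESeq2 1.42.0, other normalization and filters, the uncorrected counts, cells thinned to 10000 UMIs, MESP1 at 3 or more UMIs, 10 cells per sum and left-out libraries were alternatives. The study's test on single cells was replaced by sums, since cells are not replicates. Batch numbers are stated across days within the wild type. The differences between its 2 batches at Day 10 and Day 14 correlated at 0.072 over 7572 genes in early mesoderm-like cells and at 0.107 over 9844 genes in other Epi-derived cells. Named genes were those of the rule, up to 4 members per list and direction by adjusted p, and the 10 largest changes each way with a symbol and 1 direction in all libraries on the scaled levels of the fit, which can differ from CPM for low genes; other named genes were chosen after their values were seen. The members and gene lists were chosen with earlier results of these data known. Fits were tested on simulated data. P-values of the class contrasts and of class by day rest on how the class difference varied between libraries. Those of day and genotype rest on the spread between wild-type libraries of the same day. No spread between mutant libraries was measured there, as only 1 was fitted. Permutation p-values rest on the arrangements of genotype labels.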

Additional observations from a re-analysis of the deposited data

Results flagged for a closer look

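The shift between early mesoderm-like and other Epi-derived cells was compared between days in the wild type by an interaction of class and day, a test added after the data were seen. Of 11483 genes, 55 were called (0.479%), 32 with a positive and 23 with a negative change in the signed log2 difference from Day 10 to Day 14. Genes of the lists among them are given by that change. Positive values belonged to RSPO3 (3.09 ± 0.48), PCLAF, a replication factor (3.73 ± 0.33), and KRT19 (0.89 ± 0.14). Negative values belonged to SP5 (-2.38 ± 0.27), BAMBI (-2.24 ± 0.26), ID1 (-1.53 ± 0.22), COL2A1 (-4.41 ± 0.72) and PECAM1, an endothelial adhesion gene (-4.01 ± 0.65). By library, the BAMBI difference was 1.99 and 2.73 at Day 10 and 0.52 and -0.27 at Day 14, and that of ID1 was 1.63 and 0.97 at Day 10 and 0.16 and -0.55 at Day 14, on the log2 scale. PCLAF turned from -2.37 and -2.15 to 1.53 and 0.97, KRT19 from -0.62 and -0.45 to 0.55 and 0.20, and COL2A1 from 3.93 and 3.20 to -0.27 and -3.31, whereas SP5 was higher in all 4 libraries, at 4.91 and 5.06 and then 2.82 and 2.73. PECAM1 went from 2.53 and 3.00 to -1.24 and 1.91. RSPO3, with differences of 1.48 and 1.17 at Day 10 and 4.80 and 1.97 at Day 14, was no longer called without wild-type Day 14 replicate 1 (0.69, adjusted p = 0.974). Without the same library PCLAF (3.19, adjusted p = 0.178), SP5 (-2.49, adjusted p = 0.0121), KRT19 (0.65, adjusted p = 0.150), PECAM1 (-1.06, adjusted p = 0.815) and COL2A1 (adjusted p = 0.258) were not called either. By DESeq2 PECAM1 (adjusted p = 0.264), RSPO3 (adjusted p = 0.0347), KRT19 (adjusted p = 0.0223) and COL2A1 (adjusted p = 0.0205) were not called, nor was RSPO3 with membership at 10000 UMIs (1.76, adjusted p = 0.0297). Without wild-type Day 14 replicate 2 BAMBI, ID1 and COL2A1 were not, and the count over all genes was 15 without replicate 1, 2 positive and 13 negative.

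MESP1 at 2 or more UMIs was also seen outside the Epi-derived cells, in 0.555% of the trophoblast-like cells (129 of 23229), 0.107% of the mesenchyme-like and 0.398% of the endoderm-like cells, and its source was not tested. Of these cells, 93 held exactly 2 UMIs, and their median depth was 58238 UMIs against 20734 for all trophoblast-like cells. The share per library ran from 0.0912% to 3.73%. Their MIXL1 stood at 24.7 CPM against 2.88 CPM in all trophoblast-like cells, with 0 to 71.1 CPM per library and the highest value in wild-type Day 14 replicate 1. Their POU5F1 lay between 0 and 107 CPM per library, the latter in the same library, and their CGA, a chorionic gonadotropin subunit, between 99.0 and 10891 CPM.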

How the results depend on the processing

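Among the 60 genes named for the contrast with other Epi-derived cells, 0 reversed in any alternative that tested them. Of their 998 repeats, 28 fell short of 1%. For the contrast with transition-like cells 0 of 40 named genes reversed and 85 of 527 repeats fell short. A gene that an alternative did not test was left out of these repeats, not counted as falling short. For both contrasts, the alternative of 10 cells per sum was the main fit again. Wild-type libraries alone were likewise the fit without the mutant library. Counts of called genes moved by over 1.5 times as follows. Without a low-count filter they were 1700 against 929 for other Epi-derived cells, 682 against 183 for transition-like cells, 40 and 308 against 0 for genotype and for Day 14 against Day 10, and 295 against 55 for the class by day test. Sums thinned to 10000 UMIs per cell gave 389 for other Epi-derived cells, on 5804 genes. Membership at 10000 UMIs gave 85 for transition-like cells, 1 for genotype, 6 for day and 214 for class by day. MESP1 at 3 or more UMIs gave 9 for day and 197 for class by day. DESeq2 gave 2 for genotype and 47 for day. Wild-type libraries alone gave 77 for transition-like cells. With 1 library left out, the counts ran from 657 to 861, from 77 to 167, from 0 to 33, from 0 to 175 and from 15 to 210 in the order of these 5 comparisons. Leaving out wild-type Day 12 replicate 2 or the mutant library could not be fitted for genotype, and mutant libraries alone could not be fitted for either class contrast, as there is 1.

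With replicate number as a paired term (replicate block), the day comparison called 1 gene and the genotype comparison 0. The share difference was -11.5 percentage points under the replicate block (exact p = 0.125, 32 arrangements). It was -12.2 (exact p = 0.5) and -10.5 (exact p = 0.5) within replicate numbers 1 and 2, -5.61 at Day 12 and -18.1 at Day 14, and -8.59 to -15.1 with 1 library left out. Numbers are not stated to be shared between genotypes, and differences between batches of other Epi-derived cells correlated at 0.014 at Day 12 and 0.027 at Day 14 between genotypes, and at 0.145 between days in the mutant. HAS2 in mutant against wild type reversed from 0.35 to -0.031 with membership at 10000 UMIs and to -0.51 under the replicate block, none of these called, and the cause was not tested. Counts of 1 or 2 cells in 4 mutant libraries limit every statement on genotype.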
